A study of Mus musculus with 6 samples.

Results

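The mitochondrial genome is a small circular DNA molecule that is present in many copies per cell. All 37 rows of the deposited gene table that were placed on the mitochondrial chromosome (MT) are described here, out of 54532 rows in all. They comprise 13 protein genes, 2 rRNAs and 22 tRNAs. The table's strand column puts 12 of the protein genes, both rRNAs and 14 tRNAs on the plus strand. It puts mt-Nd6 and 8 tRNAs on the minus strand.

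T helper 17 (Th17) cells are CD4+ T cells that make the cytokine IL-17. The libraries came from GOT1-/- Th17 cells (3 libraries) and from wild-type (WT) Th17 cells (3 libraries), both made in culture from sorted naive CD4+ T cells of C57BL/6 mice aged 6 to 10 weeks, of either sex. GOT1-/- stands for mice in which Got1 was deleted in T cells only, and the labels name neither the Cre driver nor the deleted part of the gene. Both groups were activated with anti-CD3 at 5 µg/ml and anti-CD28 at 2 µg/ml in the presence of TGFβ (2.5 ng/ml), IL-1β, IL-6 and IL-23 (10 ng/ml each), with antibodies to IFNγ and IL-4 (2 µg/ml each), and RNA was taken on day 4. Whether the replicates came from separate animals is not stated, so a p-value here reflects the variation among these libraries, and that variation may be technical.

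In mammals both strands of the mitochondrial genome are transcribed as long precursor RNAs. Most mRNAs and rRNAs in them are bordered by tRNAs, and cutting the tRNAs out at both ends releases the mature RNAs, an arrangement known as tRNA punctuation. The 13 proteins made from this genome are all core subunits of the respiratory chain or of ATP synthase, whereas every other subunit, and every protein that copies, transcribes and processes the genome, comes from nuclear genes. Activated T cells build more mitochondria and raise respiration as they start to divide. GOT1 transfers the amino group of aspartate in the cytosol, as part of the malate-aspartate shuttle that carries reducing equivalents of NADH into mitochondria. Libraries were made from RNA selected with poly-T beads. Most mitochondrial mRNAs carry poly(A) tails, rRNAs carry short ones, and mature tRNAs end in CCA. The 3 classes are therefore not recovered equally, and their levels are compared here between genotypes rather than with each other.

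Some of these tails are also part of the reading frame. The last 30 bases of 5 plus-strand protein genes are shown because they differ in how the stop codon is written, which bears on whether the mRNA needs its tail to complete the stop codon. The sequences are the GENCODE M21 transcripts on GRCm38, read 5′ to 3′ on the plus strand, and the capitals mark the stop codon or the part of it that the gene encodes. They cover MT:3678-3707, MT:6843-6872, MT:9361-9390, MT:11515-11544 and MT:15259-15288 in the order shown.
mt-Nd1: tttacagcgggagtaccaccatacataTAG
mt-Co1: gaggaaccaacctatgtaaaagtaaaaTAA
mt-Co3: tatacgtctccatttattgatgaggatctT
mt-Nd4: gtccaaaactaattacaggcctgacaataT
mt-Cytb: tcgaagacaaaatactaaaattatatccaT
As annotated, 10 of the 13 protein genes end in a complete stop codon, although in mt-Nd1 and mt-Nd2 its last 2 bases are also the first 2 of the tRNA gene that follows. The other 3, mt-Co3, mt-Nd4 and mt-Cytb, end in a lone T, which polyadenylation extends to a stop codon in the mRNA. In GOT1-/- cells mt-Nd4 and mt-Cytb were called lower and mt-Co3 did not pass the test described below. Of the other 10 all but mt-Nd3 were called lower, beside 21% of all genes tested. Among these, the calls of mt-Co2 and mt-Atp8 were lost in some alternative fits.

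A second set of sequences bears on how the counts can be read. The stretch of the mitochondrial genome at MT:6390-11042, 4653 bases long, is matched in the nuclear genome by 7 annotated pseudogenes that stand in the same order at chr1:24611535-24616188, on the minus strand (4654 bases). Such nuclear copies of mitochondrial DNA are known as NUMTs. In 5 of the 7 pseudogenes every aligned base was identical to the mitochondrial gene, over 294 to 876 bases. Gm28438 matched mt-Nd3 over 342 identical bases, or over 345 bases with 99.7% identity when the alignment was extended to the first codon. Gm29216 aligned with mt-Co1 over 483 bases and differed at a single base (99.8% identity), A1066T, counted from base 1 of mt-Co1 with the mitochondrial base first. The 60 bases around that difference and the first 60 bases of mt-Co2 are shown with their copies, to show how alike they are. They cover MT:6390-6449, chr1:24616129-24616188, MT:7013-7072 and chr1:24615506-24615565, and capitals mark the differing base.
mt-Co1: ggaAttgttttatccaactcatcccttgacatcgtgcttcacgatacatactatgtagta
Gm29216: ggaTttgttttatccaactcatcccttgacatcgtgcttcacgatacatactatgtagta
mt-Co2: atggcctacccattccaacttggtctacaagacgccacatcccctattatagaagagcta
Gm28661: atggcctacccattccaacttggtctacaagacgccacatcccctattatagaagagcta
The copied stretch holds 6 protein genes whole (mt-Co2, mt-Atp8, mt-Atp6, mt-Co3, mt-Nd3 and mt-Nd4l) and part of mt-Co1 and mt-Nd4. It also holds 5 tRNA genes, all of which had 0 counts in every library. When each gene was cut into every possible window of 100 bases, the share of windows found unchanged in an annotated nuclear transcript was 99.5% for mt-Co2, 99.5% for mt-Atp6, 99.9% for mt-Co3, 97.6% for mt-Nd3 and 98.5% for mt-Nd4l. It was 60.8% for mt-Nd4, 30.8% for mt-Co1 and 3.19% for mt-Nd2. The remaining protein genes and both rRNAs shared no such window. The read length is not given, and shorter windows were shared more often. With windows of 50 bases the share was 51.1% for mt-Co1, 8.19% for mt-Nd2, 7.61% for mt-Nd5 and 1.04% for mt-Rnr2. For mt-Atp8 these counts cover annotated transcripts only. Inside the copied stretch, Gm10925 covers just its last 43 bases, fewer than a window, and no other pseudogene is annotated over it.

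The labels were first checked on the targeted gene. Got1 (ENSMUSG00000025190, chr19:43499752-43524605) had 332, 339 and 300 counts in GOT1-/- replicates 1 to 3, against 3284, 3524 and 2873 counts in WT replicates 1 to 3. Every GOT1-/- library was below every WT library (log2 fold change -3.38, SE 0.08, adjusted p = 2.15e-14). All adjusted p-values of genes come from the quasi-likelihood test of edgeR, adjusted by Benjamini-Hochberg across every tested gene. Library totals ran from 17557436 to 22541410 counts in GOT1-/- cells and from 16463752 to 21239075 in WT cells. Levels are given as CPM, counts scaled to 1000000 per library after adjustment by the trimmed mean of M-values. Summed over 4 T cell markers (Cd3e, Cd3d, Cd4 and Trac), the level was 1615 to 1763 CPM in GOT1-/- and 1887 to 1938 CPM in WT libraries. Cd3e and Trac were called lower in GOT1-/- cells, Cd3d was called higher and Cd4 was not called. For 4 Th17 markers (Il17a, Il17f, Il23r and Ccr6) the sum was 1104 to 1211 CPM in GOT1-/- and 1115 to 1219 CPM in WT libraries, most of it Il17f, while Il17a was higher (log2 fold change 0.70) and Il23r lower (-0.86) in GOT1-/- cells. Markers of 4 other groups of cells summed to between 2.27 and 24.3 CPM in GOT1-/- and between 1.75 and 19.6 CPM in WT libraries. Among these, 6 myeloid markers summed to 16.4 to 18.2 CPM in GOT1-/- and 4.65 to 7.13 CPM in WT libraries. Of the 5 tested, 3 were called higher, beside 22.9% of all genes tested. Markers of mast cells and basophils summed to 19.7 to 22.8 CPM in GOT1-/- and 14.7 to 19.1 CPM in WT libraries, with 3 of the 4 tested called higher. Those of CD8, NK and gamma-delta T cells summed to 23.4 to 24.3 CPM in GOT1-/- and 18.3 to 19.6 CPM in WT libraries. Of these, 2 of the 4 tested were called higher. Their part in the mitochondrial results was not tested. None of these markers was at 0 in all libraries.

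Transcripts of the mitochondrial genome made up a smaller part of the RNA counted in GOT1-/- cells. They held 1.14%, 1.105% and 1.103% of all gene counts in GOT1-/- replicates 1 to 3, against 1.66%, 1.56% and 1.88% in WT replicates 1 to 3 (mean 1.12% ± 0.021 and 1.70% ± 0.165, SD, n = 3 each). The GOT1-/- libraries lay close together and all below the WT libraries. The 13 protein genes accounted for most of this. They held 1.00%, 0.980% and 0.975% of all counts in GOT1-/- libraries, against 1.52%, 1.42% and 1.73% in WT libraries. Without mt-Co1, the most abundant of them, the mitochondrial share was 0.506% in GOT1-/- and 0.703% in WT cells. In bulk RNA such as this, fewer cells of a type and less RNA per cell cannot be told apart.

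Of the 37 rows, 28 had counts in at least 1 library and 20 passed the filter on low counts. These were all 13 protein genes, both rRNAs and 5 tRNAs. Of the 20 rows, 13 were lower in GOT1-/- cells at an adjusted p under 0.05 (11 protein genes and 2 tRNAs), beside 21% of all 12873 genes tested called lower and 43.8% called in either direction. None was called higher by edgeR, DESeq2 or limma-voom, and none had a higher level at an unadjusted p under 0.05 by any of the 3 tools, beside 22.9% of all genes called higher by edgeR. In 14 of the 20 rows every GOT1-/- library was below every WT library, beside 25.8% of all genes. The median log2 fold change of the 13 protein genes was -0.54, against 0.01 over all genes tested. It was -0.41 without WT replicate 3, the WT library with the highest mitochondrial share.

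**Figure D1:**
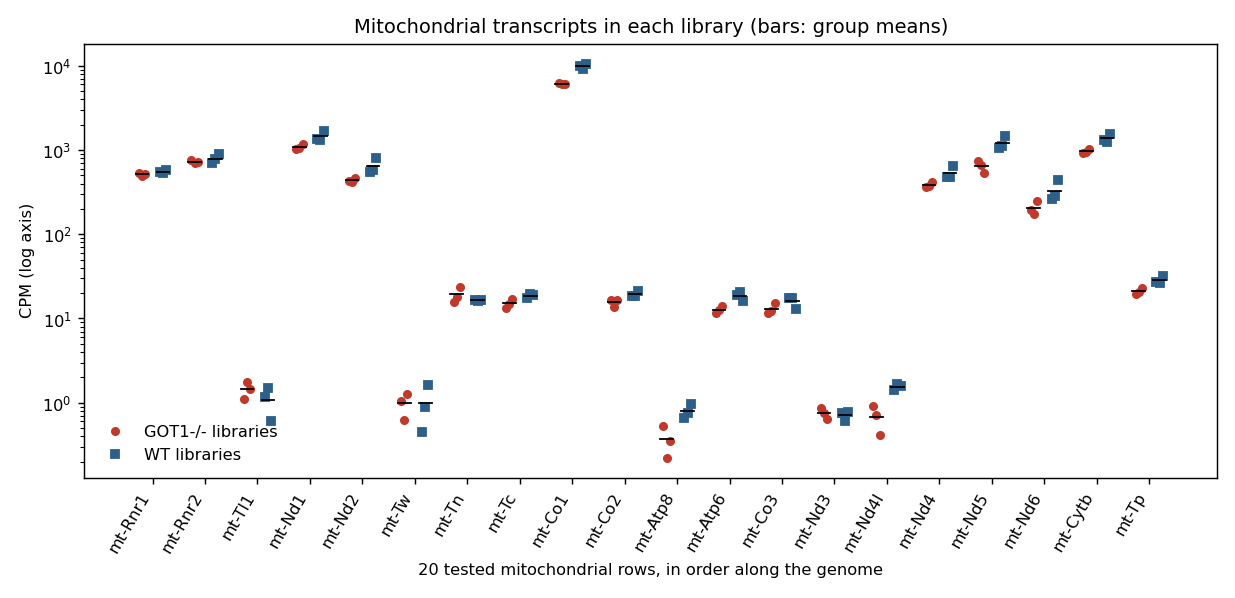
Level of the 20 tested mitochondrial rows in each library, in CPM on a log axis, in order along the genome; red circles are GOT1-/- libraries, blue squares WT libraries, and black bars group means (n = 3 each). The levels of mt-Co1, the highest row, sit between 6074 and 6261 CPM in GOT1-/- libraries, all below its WT libraries, and the rows of the copied stretch sit far below their neighbours.

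mt-Co1 encodes the catalytic subunit of cytochrome c oxidase (complex IV) and was the most abundant mitochondrial transcript in every library. Its level was 6261, 6089 and 6074 CPM in GOT1-/- replicates 1 to 3, against 10021, 9146 and 10582 CPM in WT replicates 1 to 3. The groups were far apart and the GOT1-/- libraries nearly equal. It fell by 0.69 on the log2 scale in GOT1-/- cells (SE 0.07, adjusted p = 7.54e-07). It took 54.7% ± 0.817 of all mitochondrial counts in GOT1-/- and 58.8% ± 2.28 in WT cells (SD, n = 3 each), and these shares did not overlap. The counts of mt-Co1 per count of mt-Nd1 were 6.08, 5.69 and 5.21 in GOT1-/- libraries and 7.33, 7.01 and 6.34 in WT libraries.

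The other complex IV genes, mt-Co2 and mt-Co3, encode the subunit that accepts electrons from cytochrome c and a structural core subunit. mt-Co2 had 16.6, 13.7 and 16.8 CPM in GOT1-/- libraries, against 18.3, 18.7 and 21.0 CPM in WT libraries. It was called lower (log2 fold change -0.30, SE 0.11, adjusted p = 0.0300), but the call was lost without GOT1-/- replicate 2, WT replicate 2 or WT replicate 3 (fold changes over all alternatives -0.75 to -0.22). mt-Co3 had 11.7, 12.2 and 15.1 CPM in GOT1-/- libraries and 17.6, 17.6 and 12.98 CPM in WT libraries, so that the groups overlapped. Its log2 fold change of -0.32 (SE 0.13) did not pass the test (adjusted p = 0.0598), although it did when either replicate 3 was left out, with library totals in place of the scaling (adjusted p = 0.0469) and with no filter on low counts (adjusted p = 0.0336). Both genes lie wholly in the copied stretch by their coordinates.

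Complex I, which oxidises NADH, takes 7 of its subunits from this genome. Of the 7 genes, 6 were lower in GOT1-/- cells, beside 21% of all genes tested (median log2 fold change of the 7, -0.54). mt-Nd5, a proton-pumping subunit of the membrane arm, had 739.8, 671 and 535 CPM in GOT1-/- libraries, against 1051, 1102 and 1459.8 CPM in WT libraries. GOT1-/- replicate 3 was the lowest and WT replicate 3 the highest, and the groups did not overlap. It fell by 0.89 on the log2 scale (SE 0.12, adjusted p = 1.42e-05).

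mt-Nd4, the neighbouring pump of the membrane arm, fell by 0.46 (SE 0.10, adjusted p = 0.00104), with 368, 373 and 419.7 CPM in GOT1-/- and 480.5, 476 and 637 CPM in WT libraries. The counts of mt-Nd5 per count of mt-Nd4 were 2.01, 1.80 and 1.27 in GOT1-/- libraries and 2.19, 2.31 and 2.29 in WT libraries. These ratios did not overlap. Per count of mt-Cytb the ratios of mt-Nd5 did overlap, with 0.795, 0.703 and 0.514 in GOT1-/- and 0.794, 0.892 and 0.937 in WT libraries, as they did per count of mt-Nd6 (3.79, 3.83 and 2.13 in GOT1-/- and 3.99, 3.87 and 3.33 in WT libraries). The tRNA genes mt-Th, mt-Ts2 and mt-Tl2 lie between mt-Nd4 and mt-Nd5, and mt-Nd4 shares 7 bases with mt-Nd4l, which precedes it.

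mt-Nd1, which helps form the quinone site, had 1030.1, 1071 and 1165 CPM in GOT1-/- libraries, against 1366, 1306 and 1669 CPM in WT libraries. mt-Nd2, a further pump subunit, had 434, 422 and 463 CPM in GOT1-/- libraries, against 547, 575 and 796 CPM in WT libraries. In both genes the groups were apart. mt-Nd1 fell by 0.41 (SE 0.08, adjusted p = 8.82e-04) and mt-Nd2 by 0.54 (SE 0.11, adjusted p = 5.79e-04) on the log2 scale.

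The small complex I genes mt-Nd3 and mt-Nd4l had few counts. mt-Nd4l had 19, 16 and 7 counts in GOT1-/- libraries and 28, 36 and 26 in WT libraries, and it was called lower (log2 fold change -1.17, SE 0.33, adjusted p = 0.00849). mt-Nd3 had 18, 17 and 11 counts in GOT1-/- libraries and 15, 13 and 13 in WT libraries. Its log2 fold change of 0.09 (SE 0.35, adjusted p = 0.856) turned negative without GOT1-/- replicate 1 or WT replicate 2, and its groups overlapped. At this depth a change in mt-Nd3 smaller than its error was not detectable. Both genes lie in the copied stretch.

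mt-Nd6 is the only protein gene on the minus strand, where it overlaps the end of mt-Nd5 by 14 bases. It had 195, 175 and 251 CPM in GOT1-/- libraries, against 263, 284 and 438 CPM in WT libraries. Every GOT1-/- library was below every WT library, and in both groups replicate 3 was the highest. It fell by 0.66 on the log2 scale (SE 0.15, adjusted p = 0.00176), and by 0.41 without WT replicate 3 (adjusted p = 0.0137). As a share of the counts of the 13 protein genes, mt-Nd6 held 1.95%, 1.79% and 2.52% in GOT1-/- libraries and 1.74%, 2.01% and 2.55% in WT libraries. These shares overlapped almost completely (mean 2.09% ± 0.380 and 2.10% ± 0.410, SD, n = 3 each, exact permutation p = 0.9). The library kit is not described as strand-specific, so reads of mt-Nd6 and reads of plus-strand RNA running through it cannot be told apart.

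mt-Cytb encodes cytochrome b, the only subunit of complex III that the mitochondrial genome supplies. It had 931, 954 and 1039.8 CPM in GOT1-/- libraries, against 1324, 1235 and 1559 CPM in WT libraries. The groups were apart, and it fell by 0.49 on the log2 scale (SE 0.08, adjusted p = 1.25e-04). It shares no 100-base window with an annotated nuclear transcript.

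The ATP synthase genes mt-Atp8 and mt-Atp6 encode subunits of its membrane part and overlap on a single mRNA. The end of mt-Atp8, at MT:7907-7969 on the plus strand, is shown because reads from the overlap belong to both genes. Capitals mark the 43 bases of the overlap, MT:7927-7969, from the start codon of mt-Atp6 to the stop codon of mt-Atp8.
mt-Atp8 to mt-Atp6: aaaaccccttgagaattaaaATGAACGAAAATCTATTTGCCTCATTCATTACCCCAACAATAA
mt-Atp6 had 11.6, 12.7 and 13.9 CPM in GOT1-/- libraries, against 19.04, 20.5 and 16.2 CPM in WT libraries, and it fell by 0.56 on the log2 scale (SE 0.11, adjusted p = 8.03e-04). mt-Atp8 had 11, 5 and 6 counts in GOT1-/- libraries, against 13, 16 and 16 in WT libraries. The groups did not overlap in CPM, and the call (log2 fold change -1.09, SE 0.43, adjusted p = 0.0489) was lost in 8 of 14 alternatives, among them DESeq2 and the removal of any library other than GOT1-/- replicate 1.

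The rRNAs form the core of the mitochondrial ribosome and lie at the start of the plus-strand transcript. Neither passed the test, except that both were called lower with the correction for gene length described below. mt-Rnr1, the small-subunit rRNA, had 528, 486 and 525 CPM in GOT1-/- libraries, against 548, 536 and 579 CPM in WT libraries. mt-Rnr2, the large-subunit rRNA, had 769.8, 700.1 and 714 CPM in GOT1-/- libraries, against 692, 788 and 886 CPM in WT libraries. The mt-Rnr1 groups were close but did not overlap, and the mt-Rnr2 groups overlapped. The log2 fold changes were -0.11 for mt-Rnr1 (SE 0.07, adjusted p = 0.189) and -0.12 for mt-Rnr2 (SE 0.08, adjusted p = 0.267), and neither was called by edgeR, DESeq2 or limma-voom or had an unadjusted p under 0.05 in these.

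Within the mitochondrial counts the rRNAs took a larger part in GOT1-/- cells. They held 11.4%, 10.7% and 10.96% of mitochondrial counts in GOT1-/- libraries, against 7.56%, 8.50% and 7.82% in WT libraries. Per 100 counts of mitochondrial mRNA there were 12.98, 12.1 and 12.4 rRNA counts in GOT1-/- libraries and 8.21, 9.33 and 8.52 in WT libraries. The groups were apart in both measures. For the rRNA share the exact two-sided permutation test gave p = 0.1, the smallest it can give, and 0.15 after Benjamini-Hochberg adjustment over the 3 shares tested this way (those of rRNA, tRNA and mt-Nd6). The ratio of mt-Rnr2 to mt-Rnr1 counts averaged 1.42 in both groups.

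**Figure D2:**
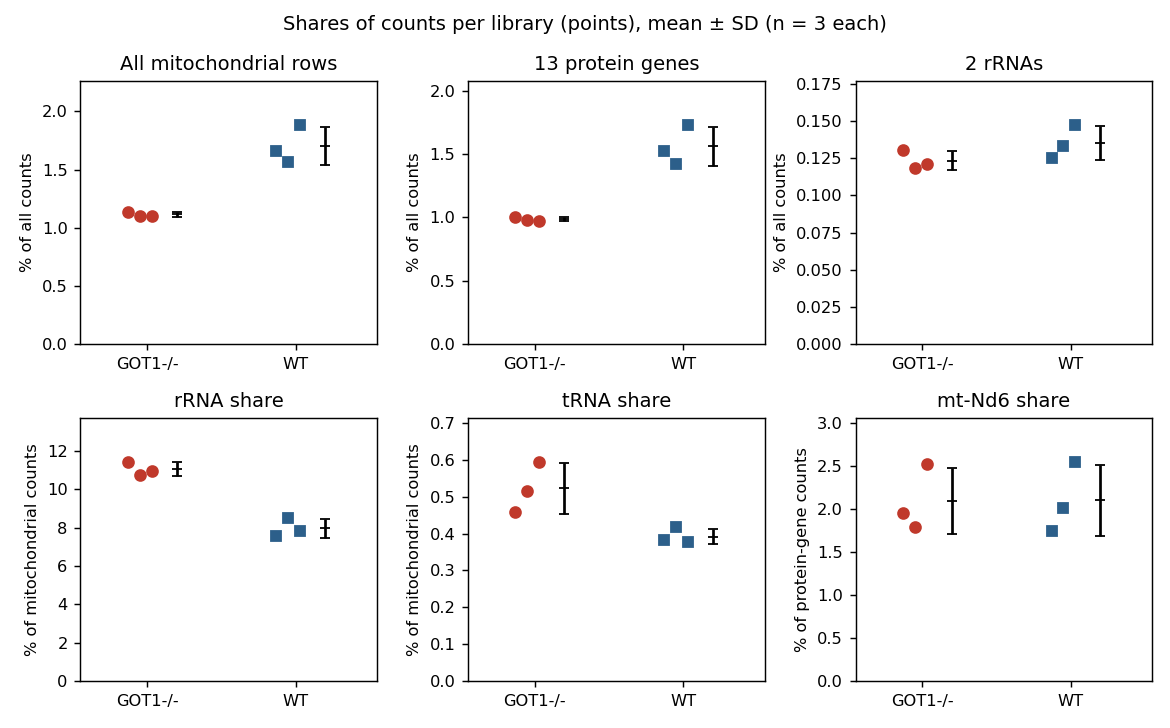
Shares of counts in each library, in percent of all counts (top row) or of mitochondrial or protein-gene counts (bottom row); points are libraries, GOT1-/- left of WT, and the bars beside them give mean ± SD (n = 3 each). The mitochondrial share averages 1.12% in GOT1-/- and 1.70% in WT cells, the rRNA share of mitochondrial counts 11.05% and 7.96%, and the mt-Nd6 shares overlap.

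tRNA counts were sparse. Of the 22 tRNA rows, 9 had 0 counts in every library, which allows each of them up to 0.133 to 0.182 CPM depending on the library. A further 4 had fewer than 10 counts in all 6 libraries together, and 4 more had enough counts to list but did not pass the filter. These 4 were not tested. mt-Te, the tRNA of glutamate, had 3, 5 and 3 counts in GOT1-/- libraries and 0, 0 and 1 in WT libraries. The others overlapped between the groups. Summed over libraries, mt-Ty had 14 counts in GOT1-/- and 10 in WT cells, mt-Tl2 6 and 7, and mt-Tt 5 and 6. Over 94% of tRNA counts in each library came from mt-Tp, mt-Tn and mt-Tc, all on the minus strand. The kit is not described as strand-specific, so their reads and reads of plus-strand RNA running through these genes cannot be told apart. The library fragments of 150 to 200 bp were also longer than these tRNAs. Mature tRNA and longer RNA that contains it therefore cannot be separated in these rows. As a share of mitochondrial counts, tRNAs held 0.458%, 0.515% and 0.596% in GOT1-/- libraries, against 0.383%, 0.417% and 0.377% in WT libraries (exact permutation p = 0.1, adjusted 0.15). As a share of all counts they were not raised, with 0.00522%, 0.00569% and 0.00657% in GOT1-/- and 0.00634%, 0.00652% and 0.00709% in WT libraries, which overlapped.

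The sequences of mt-Tp and mt-Tn, the 2 tRNA rows with the most counts, are shown to say which stretches of the genome these values belong to. They are read 5′ to 3′ on the minus strand, at MT:15356-15422 and MT:5089-5159.
mt-Tp: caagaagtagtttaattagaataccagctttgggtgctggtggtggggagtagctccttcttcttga
mt-Tn: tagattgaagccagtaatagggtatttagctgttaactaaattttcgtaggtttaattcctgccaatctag
mt-Tp, the tRNA of proline, had 19.8, 20.5 and 22.9 CPM in GOT1-/- libraries, against 26.8, 26.1 and 32.1 CPM in WT libraries. The groups were apart, and it fell by 0.43 on the log2 scale (SE 0.10, adjusted p = 0.00263). It lies beyond mt-Cytb and mt-Tt on the opposite strand, and there were 2.12, 2.15 and 2.21 counts of mt-Tp per 100 of mt-Cytb in GOT1-/- libraries and 2.02, 2.11 and 2.06 in WT libraries. mt-Tn, the tRNA of asparagine, had 15.8, 18.2 and 23.8 CPM in GOT1-/- libraries, against 16.7, 16.1 and 16.8 CPM in WT libraries. The WT libraries were nearly equal and the GOT1-/- libraries spread around and above them (log2 fold change 0.21, SE 0.13, adjusted p = 0.184). Without GOT1-/- replicate 1 it was called higher (0.34, adjusted p = 0.0268).

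mt-Tc, the tRNA of cysteine, follows mt-Tn after 32 bases, a gap that in mouse holds the origin of light-strand replication. It had 13.4, 14.9 and 17.0 CPM in GOT1-/- libraries, against 17.4, 19.5 and 18.8 CPM in WT libraries. The groups did not overlap, and it fell by 0.30 on the log2 scale (SE 0.11, adjusted p = 0.0291), a call lost without GOT1-/- replicate 1, GOT1-/- replicate 2, WT replicate 2 or WT replicate 3. The 2 plus-strand tRNAs with enough counts did not pass the test. mt-Tl1, a leucine tRNA between mt-Rnr2 and mt-Nd1, had 23, 40 and 25 counts in GOT1-/- and 23, 32 and 10 in WT libraries. mt-Tw, the tRNA of tryptophan, had 22, 14 and 22 counts in GOT1-/- and 9, 19 and 27 in WT libraries. Their log2 fold changes were 0.38 (SE 0.34, adjusted p = 0.379) and 0.01 (SE 0.42, adjusted p = 0.992), and the sign of mt-Tw changed under 10 of 15 alternatives.

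**Figure D3:**
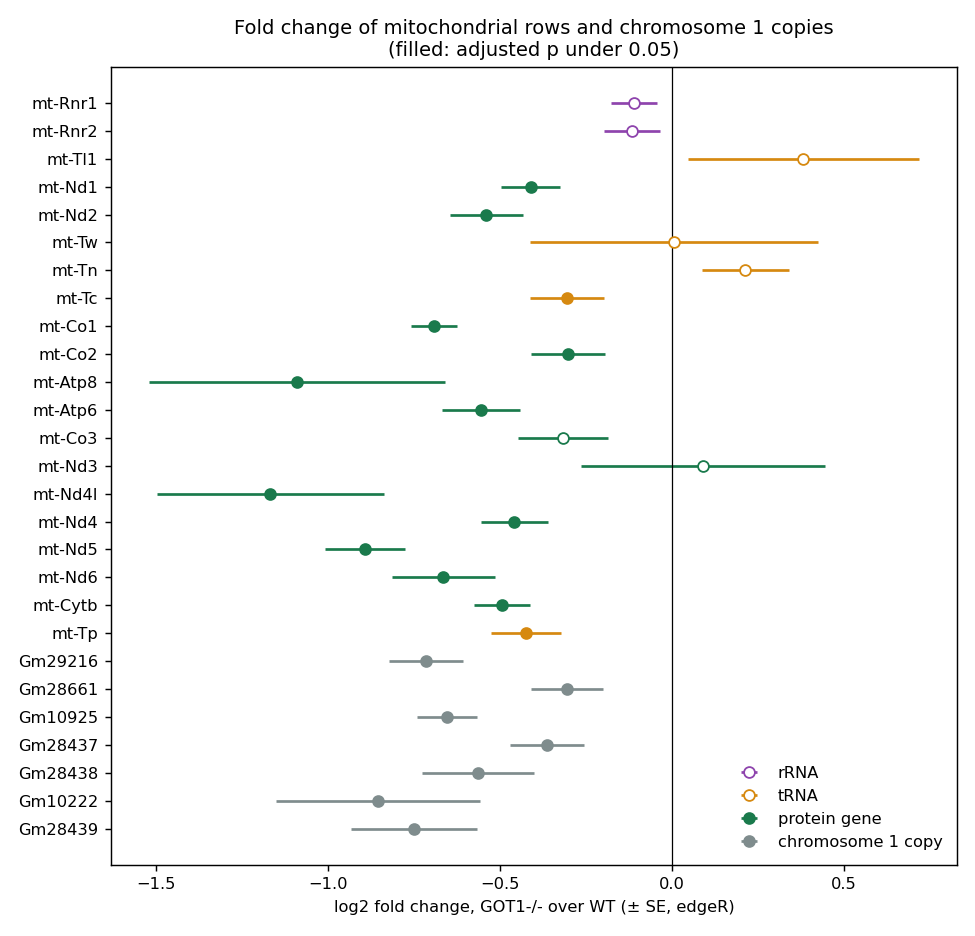
Log2 fold change of GOT1-/- over WT with its standard error, from edgeR, for the 20 tested mitochondrial rows in order along the genome and the 7 chromosome 1 copies below them; filled points have an adjusted p under 0.05. The protein genes lie left of 0 apart from mt-Nd3 at 0.09, both rRNAs lie close to 0, and all 7 copies lie left of it.

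Levels per length were far lower inside the copied stretch than on either side of it. For the 6 protein genes wholly inside it the level was 1.80 to 22.9 CPM per kb in GOT1-/- and 2.06 to 28.2 CPM per kb in WT cells. For the other 7 protein genes it was 281 to 3975 CPM per kb in GOT1-/- and 386 to 6419 CPM per kb in WT cells. The 2 ranges did not overlap in either genotype, although the genes of the stretch stand between mt-Co1 and mt-Nd4 on the same precursor. Together the 6 genes had 2592 counts in GOT1-/- and 3306 counts in WT libraries, against 597032 and 883238 counts for the other 7. Divided by unshared 100-base windows alone, the order was different. mt-Co2 (3 such windows) had 5226 and mt-Atp6 (3 windows) 4243 CPM per 1000 windows in GOT1-/- cells, against 6438 and 6202 in WT cells. mt-Co3 (1 window) had 13004 in GOT1-/- and 16046 in WT cells. For mt-Co1 (1000 windows) the values were 6141 in GOT1-/- and 9917 in WT cells. In GOT1-/- and WT cells, mt-Nd3 (6 windows) had 126 and 120, mt-Nd4l (3 windows) 226 and 519, and mt-Atp8 3.50 and 7.53. These stayed below mt-Nd5, the lowest of the other 7 protein genes by this measure, at 376 and 698. In the genes of the stretch other than mt-Atp8, these values rest on few windows. The windows of mt-Atp8 are unshared with annotated transcripts only, since no genome sequence was searched. The sources used here do not give how reads that match several places were counted, and its part in these levels was not tested.

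**Figure D4:**
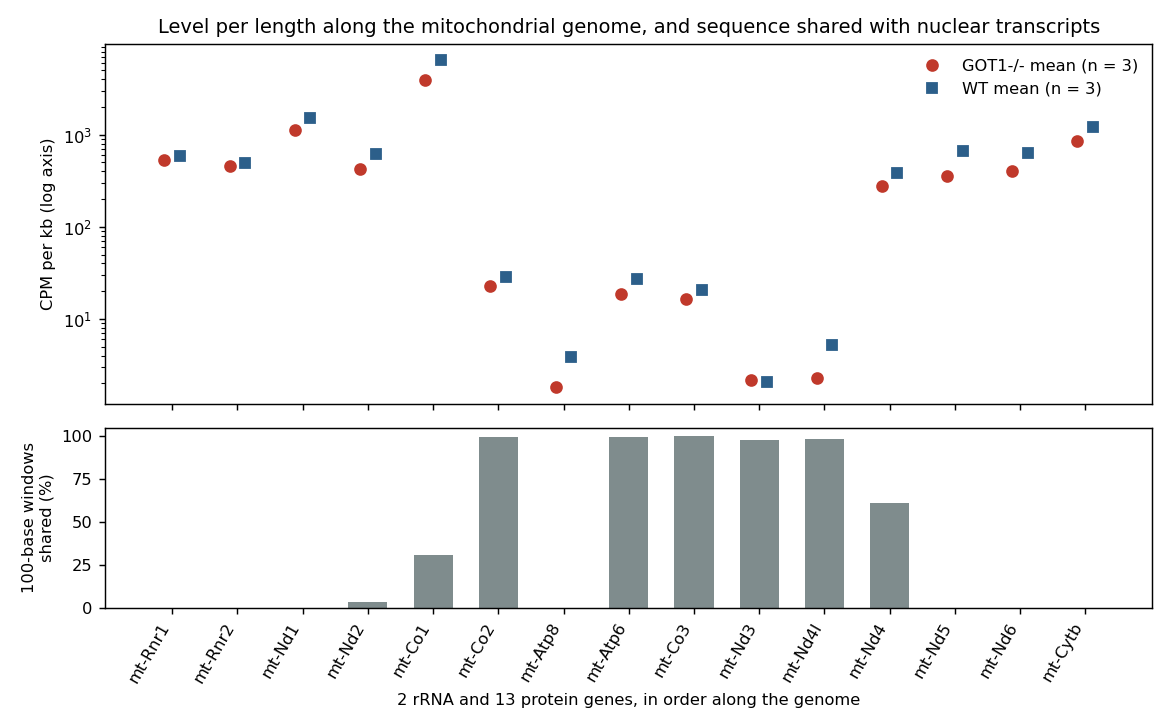
Top, mean level per kb of the 2 rRNAs and 13 protein genes in order along the genome (log axis; red circles GOT1-/-, blue squares WT, n = 3 each). Bottom, percent of each gene's 100-base windows also found in an annotated nuclear transcript, and the levels of the genes at 97.6% or more, and of mt-Atp8, lie at or below 28.2 CPM per kb.

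Counts at the nuclear copies were lower in GOT1-/- cells too. All 7 copies were called lower (median log2 fold change -0.65), beside the same 21% of all genes, and 4 were when GOT1-/- replicate 2 was left out. Gm10925, the copy of mt-Atp6, had 17.6, 18.3 and 18.7 CPM in GOT1-/- libraries, against 28.3, 28.5 and 29.0 CPM in WT libraries (log2 fold change -0.65, SE 0.09, adjusted p = 1.68e-05). Gm29216, the copy of the end of mt-Co1 printed above, had 11.1, 12.8 and 12.7 CPM in GOT1-/- libraries, against 22.0, 19.3 and 18.8 CPM in WT libraries (log2 fold change -0.71, SE 0.11, adjusted p = 4.94e-05). In both the groups were far apart.

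The other copies had log2 fold changes of -0.30 (Gm28661, of mt-Co2), -0.36 (Gm28437, of mt-Co3), -0.56 (Gm28438, of mt-Nd3), -0.75 (Gm28439, of mt-Nd4) and -0.86 (Gm10222, of mt-Nd4l). Of these, Gm28439 kept its call whichever library was left out. Gm28438 lost it without WT replicate 2, Gm28437 without GOT1-/- replicate 2, Gm10222 without GOT1-/- replicate 2, WT replicate 1 or WT replicate 3, and Gm28661 without GOT1-/- replicate 1, GOT1-/- replicate 2, WT replicate 1 or WT replicate 3. The copies of mt-Co2, mt-Atp6, mt-Co3, mt-Nd3 and mt-Nd4l, without Gm29216 and Gm28439, were also set against these genes. Together they had 134, 135 and 136 counts per 100 counts of these genes in GOT1-/- libraries, and 139.9, 133 and 154 in WT libraries. These ratios overlapped. Reads from the identical parts of a gene and its copy cannot be told apart, and how they were counted is not given. The values of either row in the copied stretch therefore cannot be credited to the mitochondrial gene alone. Outside the stretch, mt-Nd1, mt-Nd5, mt-Nd6 and mt-Cytb share no 100-base window with an annotated nuclear transcript and mt-Nd2 shares few. At 50 bases, mt-Nd5 shared 7.61% of its windows and mt-Nd2 8.19%. These 5 genes were all called lower, beside 21% of all genes tested.

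The nuclear subunits of the same complexes went the other way. For complex I, 28 of 36 nuclear subunit genes were higher in GOT1-/- cells (median log2 fold change 0.47), beside 22.9% of all genes tested. For complex III it was 7 of 9 (median 0.43), for complex IV 11 of 11 (0.43) and for ATP synthase 12 of 18 (0.35). None of these 74 genes was called lower by edgeR, DESeq2 or limma-voom, and none was lower at an unadjusted p under 0.05 in these.

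The mitochondrial genes of the same complexes had medians of -0.54, -0.49, -0.32 and -0.82 in that order. The nuclear genes with the 2 largest changes per complex were Ndufa1 and Ndufa2 in complex I, Uqcr11 and Uqcrq in complex III, Cox6a1 and Cox5b in complex IV, and Atp5k and Atp5e in ATP synthase. Ndufa1, an accessory subunit of the membrane arm, had 44.3, 54.7 and 54.2 CPM in GOT1-/- libraries, against 17.0, 17.9 and 14.7 CPM in WT libraries (log2 fold change 1.62, SE 0.10, adjusted p = 8.76e-09). Atp5k, the e subunit of ATP synthase, had 20.3, 25.0 and 25.4 CPM in GOT1-/- libraries, against 7.63, 5.63 and 5.62 CPM in WT libraries (log2 fold change 1.90, SE 0.14, adjusted p = 2.90e-08). In both the groups were far apart, and the other 6 had log2 fold changes of 0.71 (Cox5b) to 1.39 (Ndufa2).

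**Figure D5:**
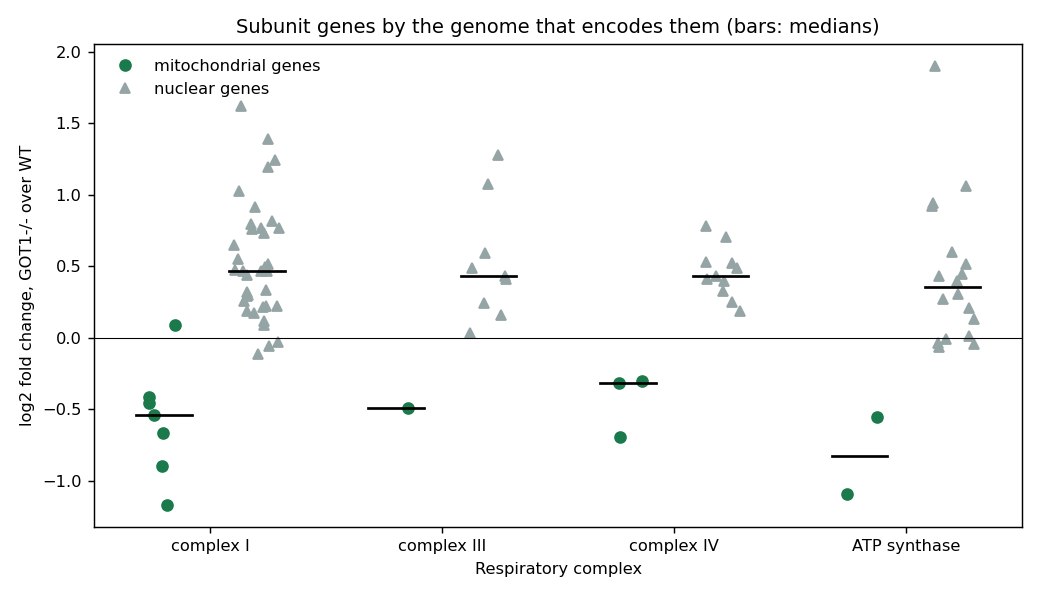
Log2 fold change of GOT1-/- over WT for each tested subunit gene of 4 respiratory complexes, by the genome that encodes it; bars are medians. The mitochondrial genes lie below 0 apart from mt-Nd3, and most of the 74 nuclear genes lie above 0, with medians of 0.35 to 0.47.

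A trend over gene length ran through these libraries and touches both sets. Over 11513 nuclear protein-coding genes, shorter genes tended to have the higher log2 fold change (Spearman's rho -0.4 across genes, which are not independent). With a smooth length trend removed from each library, the median of the 13 mitochondrial protein genes was -0.91, further from 0, and both rRNAs were called lower (mt-Rnr1 -0.49, adjusted p = 2.16e-05, and mt-Rnr2 -0.38, adjusted p = 0.00153). mt-Co3 was also called lower (-0.73), and mt-Tn was called lower instead of uncalled (-0.46, adjusted p = 0.00652). Under the same correction 36 of the 74 nuclear subunit genes were called higher and 8 lower (median 0.21), with 3 of 11 higher in complex IV. Of all 12873 genes, 2513 were then called higher and 2806 lower. The shortest gene behind the correction had 243 bases, so that mt-Atp8 and the tRNAs, which are shorter, received the correction of that length.

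Most of the nuclear genes that maintain and express the mitochondrial genome did not pass the test. Of 46 such genes, 10 were higher in GOT1-/- cells, 3 were lower and 33 did not pass the test (median log2 fold change 0.10), beside 22.9% of all genes called higher and 21% called lower. Without GOT1-/- replicate 2 the counts were 5 and 1, and without WT replicate 3 they were 6 and 2.

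Among factors of transcription, Tfb2m, which opens the promoter for the mitochondrial RNA polymerase, had 25.5, 23.3 and 23.8 CPM in GOT1-/- libraries, against 28.6, 27.7 and 33.4 CPM in WT libraries. It was called lower (log2 fold change -0.30, SE 0.09, adjusted p = 0.0151), and this was lost without GOT1-/- replicate 2 or WT replicate 3. The polymerase itself, Polrmt, had 22.5 ± 0.997 CPM in GOT1-/- and 21.5 ± 2.72 CPM in WT cells (log2 fold change 0.06, SE 0.10, adjusted p = 0.658). The packaging and initiation factor Tfam had 53.4 ± 2.75 CPM in GOT1-/- and 50.3 ± 4.33 CPM in WT cells (log2 fold change 0.09, SE 0.08, adjusted p = 0.416; SD, n = 3 each). The levels of both overlapped between the groups. Top1mt, the mitochondrial DNA topoisomerase, and Rnaseh1, which removes RNA from RNA-DNA hybrids, were higher, with log2 fold changes of 0.55 (SE 0.14, adjusted p = 0.00430) and 0.54 (SE 0.12, adjusted p = 0.00202).

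Among genes that act on mitochondrial RNA, Mtpap, the poly(A) polymerase that adds the tails, had 46.7, 47.6 and 51.4 CPM in GOT1-/- libraries, against 56.3, 59.4 and 57.2 CPM in WT libraries. It was called lower (log2 fold change -0.25, SE 0.08, adjusted p = 0.0140), a call lost without GOT1-/- replicate 2 or WT replicate 2. Grsf1, an RNA-binding protein of mitochondrial RNA granules, was lower as well (log2 fold change -0.26, SE 0.07, adjusted p = 0.00759).

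The partners Lrpprc and Slirp, which bind mitochondrial mRNAs and keep them stable, were both called higher. Lrpprc had 64.5, 68.1 and 70.4 CPM in GOT1-/- libraries, against 56.4, 54.0 and 59.0 CPM in WT libraries (log2 fold change 0.26, SE 0.08, adjusted p = 0.00942), and its call was lost without GOT1-/- replicate 2 or WT replicate 2. Slirp was near the bottom of the measured range, with 2.22, 1.596 and 2.04 CPM in GOT1-/- and 1.36, 1.08 and 0.362 CPM in WT libraries (log2 fold change 1.01, SE 0.35, adjusted p = 0.0260). Without WT replicate 3 its log2 fold change was 0.66 and did not pass the test, nor did it without GOT1-/- replicate 1.

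Of the RNA modification and granule genes, Pus1, a pseudouridine synthase of tRNAs, rose, with 40.3, 49.8 and 43.5 CPM in GOT1-/- libraries, against 25.2, 30.004 and 24.6 CPM in WT libraries (log2 fold change 0.74, SE 0.10, adjusted p = 1.86e-05). Tbrg4 and Fastk, related RNA-binding proteins that in human cells affect the stability of particular mitochondrial mRNAs, rose by 0.46 (SE 0.08, adjusted p = 3.37e-04) and 0.36 (SE 0.10, adjusted p = 0.00828). The Fastk change was 0.23 without WT replicate 3 and did not pass the test, nor did it without GOT1-/- replicate 2. Gtpbp3, which modifies tRNA wobble bases, and Rexo2, which degrades short RNA fragments, rose by 0.38 (SE 0.11, adjusted p = 0.0123) and 0.24 (SE 0.06, adjusted p = 0.00673). The call of Gtpbp3 was lost without GOT1-/- replicate 2 or WT replicate 3, and that of Rexo2 without GOT1-/- replicate 2. With the length trend removed, Top1mt and Rexo2 did not pass the test.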

How the data were processed

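Poly-A RNA of 3 GOT1-/- and 3 WT libraries was sequenced. The authors deposited whole-number counts per gene, not normalized. STAR and the build GRCm38 are named in the submitters' processing notes. The sources used here do not give the STAR version, counting tool, annotation, strand setting or read length. Coordinates of all 37 mitochondrial rows equal those of GENCODE M21, from which sequences were read. Copies were found with BLAST 2.17.0 and Biopython 1.88 among annotated transcripts (at least 90% identity over 100 bases), and no genome sequence was searched.

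The comparison of genotypes used edgeR 4.0.16 (R 4.3.3) (quasi-likelihood test, two-sided, TMM scaling, genotype as the only term) over the 12873 genes kept by filterByExpr (minimum count 10, minimum total 15), with Benjamini-Hochberg adjustment over all of them. Library totals of 16463752 to 22541410 counts make 3 counts worth 0.133 to 0.182 CPM. This is the level that 0 counts still allow, for counting error only. Within a group, libraries differed beyond counting noise (chi-square of 3.76 to 13.7 per degree of freedom over all genes, and of 17.35 to 325 over the mitochondrial rows, where WT replicate 3 stood apart from the other WT libraries at 240.8 and 325) and were kept apart. The shares of rRNA, tRNA and mt-Nd6 were compared by exact permutation of libraries, and the adjustment ran over these 3. A permutation p was also computed for the mitochondrial share and for other shares and ratios. These lay outside that adjustment and are not reported here. Alternatives were DESeq2 1.42.0, limma-voom (limma 3.58.1), other scalings and filters, the replicate number as a block, a length correction (natural spline, 5 degrees of freedom), and each library left out in turn; 4 alternatives for the shares were added after the data were seen.

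On counts simulated for this comparison over 12725 genes, with 100 genes changed at each size, edgeR recovered 89% of 1.5-fold and 100% of 2-fold changes. It also called 19 genes that had not been changed. The members and gene lists were chosen with earlier results of these data known. Named genes were all mitochondrial rows, Got1, the 7 copies, up to 8 called genes per direction of the mitochondrial DNA and RNA list with Polrmt, Tfam, Tfb2m, Lrpprc, Slirp and Mtpap, and the 2 largest called changes per nuclear complex. Of 47 genes on that list, 46 were matched. A further Th17 marker is not reported here.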

Additional observations from a re-analysis of the deposited data

How the results depend on the processing

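Over 15 alternatives, 10 to 14 mitochondrial rows were called lower, and 17 with the length correction. mt-Co1, mt-Nd1, mt-Nd2, mt-Nd4, mt-Nd4l, mt-Nd5, mt-Nd6, mt-Cytb, mt-Atp6 and mt-Tp kept their call and direction in all 15. The count called higher was 0 apart from 1 (mt-Tn) without GOT1-/- replicate 1, so that leaving out a library gave 0 to 1. The median of the 13 mRNAs was -0.91 with the length correction, and -0.58 to -0.41 with a library left out. With a library left out the list for mitochondrial DNA and RNA had 5 to 10 genes higher and 1 to 3 lower, and 7 lower with the length correction. The difference in the mt-Nd6 share was -0.226 to 0.213 percentage points with a library left out. The length correction turned round mt-Tl1 (-0.27), mt-Tw (-0.67), mt-Tn (-0.46) and mt-Nd3 (-0.49). The sign of mt-Tw also turned with DESeq2 (-0.0091), RLE size factors (-0.0035), library totals (-0.012), library sizes from nuclear genes (-0.0037) and a stricter filter (-0.0020), and it ran from -0.35 to 0.50 with a library left out. That range was -0.0216 to 0.18 for mt-Nd3 and -0.0448 to 0.14 for Polrmt. The cause of these turns was not tested. With the replicate number as a block, 12 mitochondrial rows were called lower, without mt-Atp8. Deviations of same-numbered libraries correlated by 0.054, -0.027 and 0.024, which gave no sign of pairing by number but cannot exclude it. Rows with fewer than about 30 counts per library on average (mt-Atp8, mt-Nd3, mt-Nd4l, mt-Tl1, mt-Tw) are limited by depth.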

Other observations

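Other nuclear transcripts resemble mitochondrial genes less closely than the chromosome 1 copies do, and 2 of them had more than 10 counts in all libraries together. They were chosen after their values were seen. Gm13340, a pseudogene on chromosome 2, aligned with all 1545 bases of mt-Co1 at 97.6% identity. It had 93, 94 and 59 counts in GOT1-/- replicates 1 to 3, against 208, 210 and 210 counts in WT replicates 1 to 3. The groups were far apart (4.03 ± 0.533 CPM in GOT1-/- and 11.01 ± 1.48 CPM in WT cells, SD, n = 3 each; log2 fold change -1.43, SE 0.15, adjusted p = 1.79e-06 by the quasi-likelihood test of edgeR), and the change was further from 0 than that of mt-Co1 itself (-0.69). The difference between these changes was not tested. Its neighbour Gm13341, which resembles mt-Co2 over 684 bases at 95.9% identity, had 27, 40 and 28 counts in GOT1-/- libraries and 28, 37 and 30 in WT libraries, which overlapped (log2 fold change -0.07, adjusted p = 0.852). The copies of mt-Cytb and mt-Nd5 on chromosomes 4 and 13 had 0 counts in every library, which allows each up to 0.133 to 0.182 CPM depending on the library.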
